A study of Mus musculus with 9 samples.

Results

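Interleukins are secreted proteins through which blood and immune cells steer one another, and most act through receptors built from a chain that binds one cytokine and a chain shared between several. In the bone marrow these signals set how often stem and progenitor cells divide and which lineages they enter: IL-1 and IL-6 push early progenitors towards myeloid cells, IL-3 acts on many early progenitors, and IL-7 is needed for lymphoid development in the mouse. Receptors of the IL-1 and IL-18 branch signal through the adaptor MYD88, and most of the others through JAK kinases and STAT transcription factors. All genes whose symbol in the array's annotation begins with Il and a digit were taken, wherever a probeset carried that symbol alone. This gave 77 genes of 30142 measured, each with 1 such probeset, and they comprised 36 receptor chains, 38 ligands or ligand subunits, and 3 antagonists or binding proteins. Il2rg, Il1rl1 and Il11ra1 were not analysed here.

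The cells were LSK cells from bone marrow, which lack lineage markers and carry Sca-1 and c-Kit, a gate that holds the stem cells and the earliest progenitors. The 4 Abi-1 KO mice were Abi1(-/-) with the Mx1-cre transgene, and the 5 Abi-1 WT mice were Abi1(fl/fl) without Cre. Mice of both groups had 3 injections of poly(I:C) at 8 to 9 weeks of age and were sampled at 12 to 14 weeks, with 1 whole-transcript Affymetrix array per mouse. The Mx1 promoter drives Cre in all cells that respond to interferon, so the deletion is not limited to LSK cells, and what Cre does by itself cannot be told apart from what the loss of Abi1 does. Poly(I:C) itself induces interferons and inflammatory cytokines, and every array came from an injected mouse.

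Abi1 had log2 signals of 6.11, 5.82, 5.59 and 5.76 in the KO arrays and of 11.65, 11.49, 11.50, 11.56 and 11.53 in the WT arrays, so the labels matched the targeted gene. The 8 measured genes of 10 on a list of LSK and multipotent progenitor markers, Kit among them, all lay above background. The level that 95% of 1719 odour and pheromone receptor genes did not exceed served as background, at 5.29 to 5.64 by array, and a gene counted as above it when its mean over the 9 arrays exceeded the mean level of 5.37. KO replicate 1 had the highest level, 5.64, against 5.29 to 5.37 in the other arrays. KO replicate 1 and WT replicate 5 also had the lowest median correlations with the other arrays, at 0.986 and 0.989, against 0.993 to 0.996. These correlations run across genes, which are not independent replicates.

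Of the 77 interleukin genes, 35 (45.5%) lay above background, against 53.2% of all genes. The split ran along the class: 24 of 36 receptor chains (66.7%) but 10 of 38 ligands (26.3%) lay above background, together with the binding protein gene Il18bp. At the stricter percentile 99 of the odour and pheromone receptor genes, at 6.05 to 6.41 per array, 20 genes remained above, namely 16 receptor chains, the ligands Il12a, Il15 and Il18, and Il18bp. A signal depends on the probes as well as on the transcript, so the order of signals between genes is not an order of transcript abundance. In single arrays 32 to 36 of the 77 genes exceeded the level of that array, with the 32 in KO replicate 1, and 27 of the 35 did so in all 9 arrays.

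**Figure D1:**
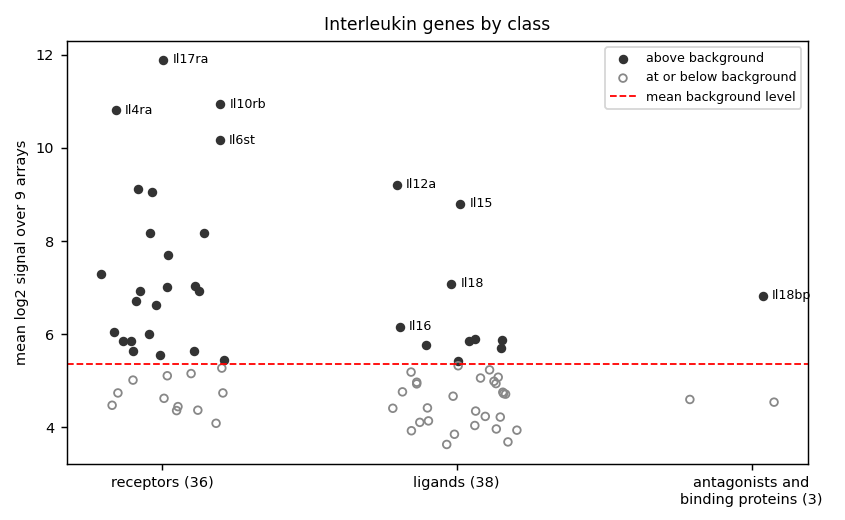
Mean log2 signal over the 9 arrays (vertical axis) of each interleukin gene, by class; filled points lie above the mean background level (dashed line) and open points at or below it. 24 of 36 receptor chains are filled, against 10 of 38 ligands.

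The brightest receptor signals came from chains that several cytokines share. Il17ra, the chain common to the IL-17 receptors, had log2 signals of 12.02, 12.06, 11.94 and 11.87 in KO and of 11.74, 11.96, 11.70, 11.84 and 11.85 in WT. The KO arrays lay high within a narrow range, and WT replicate 2 lay among them. Il10rb, shared by the receptors of IL-10 and IL-22, had 10.69, 11.08, 10.95 and 10.95 in KO and 10.86, 10.94, 11.02, 10.95 and 10.97 in WT, with full overlap of the groups. Il6st, which encodes gp130, the signalling chain of IL-6, IL-27 and their relatives, had 9.67, 10.50, 9.83 and 10.23 in KO and 9.86, 9.87, 10.42, 10.79 and 10.33 in WT. KO replicate 1 was the lowest and WT replicate 4 the highest of the 9 arrays. Il4ra, the chain through which IL-4 and IL-13 signal, had 11.46, 11.18, 10.23 and 10.57 in KO and 10.51, 10.19, 10.78, 11.26 and 11.09 in WT. High and low arrays occurred in both groups, and the standard deviation was 0.56 in KO (n = 4) and 0.43 in WT (n = 5).

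Chains that bind 1 cytokine or a pair of cytokines followed. Il6ra, the IL-6-binding chain, had log2 signals of 8.94, 9.67, 8.72 and 9.23 in KO and of 8.91, 8.79, 9.11, 9.48 and 9.11 in WT, and each group spanned most of the range. Il3ra, the IL-3-binding chain, had 9.06, 9.31, 9.27 and 9.06 in KO and 8.63, 9.06, 9.08, 8.89 and 9.06 in WT. No KO array was below 9.06, a value that also occurred in WT replicates 2 and 5. Il12rb2, the chain of the IL-12 receptor that recruits STAT4, had 7.46, 8.10, 8.45 and 8.19 in KO and 8.25, 8.56, 8.23, 8.22 and 8.16 in WT. KO replicate 1 stood well below the rest. Il27ra, which pairs with gp130 in the IL-27 receptor, had 7.89, 8.38, 8.48 and 8.26 in KO and 8.26, 8.40, 8.11, 8.49 and 7.26 in WT, with WT replicate 5 apart from the other 8 arrays.

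The other receptor chains above percentile 99 were Il1r1, Il17re, Il15ra, Il31ra, Il18rap, Il1rl2, Il12rb1 and Il10ra, picked as examples with their values known. Il1r1, the signalling receptor of IL-1, had 8.36, 7.99, 7.68 and 7.35 in KO and 7.13, 7.34, 7.68, 7.89 and 7.89 in WT. The signals of both groups spread widely and overlapped. Il17re, the partner of Il17ra in the IL-17C receptor, had 7.13, 7.53, 7.03 and 6.92 in KO and 7.19, 7.13, 6.96, 8.07 and 7.72 in WT, so the highest signals were those of WT replicates 4 and 5. Means of the remaining 6 chains ran from 6.62 for Il10ra to 7.03 for Il15ra. Their differences between KO and WT ran from -0.09 for Il18rap to 0.09 for Il1rl2. The remaining 8 of the 24 chains, Il20rb, Il1rap, Il17rb, Il18r1, Il7r, Il17rc, Il1r2 and Il2rb, lay between the percentile 95 and percentile 99 levels.

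Chains that form a receptor together were also described as pairs. Singly, 66.7% of receptor chains lay above background, and how often unrelated chains would pair so was not tested. Il17ra, Il1rap, Il6st, Il12rb1 and Il10rb each occur in several pairs, so the pairs are not independent. The receptors of IL-2, IL-7, IL-9, IL-15 and IL-21 were not paired. Of 17 receptors with 2 chains listed after the values had been seen, 10 had both chains above background: those of IL-1 (Il1r1 and Il1rap), IL-36 (Il1rl2 and Il1rap), IL-18 (Il18r1 and Il18rap), IL-6, IL-27, IL-12 (Il12rb1 and Il12rb2), IL-10, IL-17A (Il17ra and Il17rc), IL-25 (Il17ra and Il17rb) and IL-17C. In 5 receptors one chain was above and the other below. Il23r, which turns the IL-12 receptor chain Il12rb1 into the IL-23 receptor, had 4.74 in all 9 arrays. Il22ra1 and Il20ra, the binding chains for IL-22 and for IL-20, averaged 4.37 and 5.11. Il13ra1, the IL-13-binding partner of Il4ra, averaged 5.16, and Osmr, the partner of Il31ra, was listed at 4.23 in all 9 arrays. The IL-3 and IL-5 receptors could not be rated, since their shared chain Csf2rb was not analysed here. The IL-5-binding chain Il5ra, at a mean of 5.02, lay below background in all 9 arrays.

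Among the ligands, Il12a and Il15 had the brightest signals. Il12a, the p35 subunit that IL-12 and IL-35 share, had log2 signals of 9.18, 9.69, 9.17 and 8.97 in KO and of 8.92, 8.91, 9.17, 9.35 and 9.51 in WT, and the groups overlapped. Its partner subunits were both below background in all 9 arrays: Il12b, the p40 subunit of IL-12 and IL-23, averaged 4.41, and Ebi3, the second subunit of IL-27 and IL-35, averaged 4.56. Il27, the p28 subunit, had 6.03, 5.93, 5.81 and 5.79 in KO and 5.74, 5.72, 5.81, 5.81 and 6.16 in WT. Each of the 4 cytokines built from these subunits includes Il12b or Ebi3, so none had both of its subunits above background. Il15, a growth factor for natural killer and memory T cells, had 8.94, 8.94, 8.55 and 8.50 in KO and 8.75, 8.44, 8.72, 8.89 and 9.45 in WT, with WT replicate 5 the highest array.

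Il18, an IL-1 family member that is released after cleavage by caspase-1, had 7.16, 7.25, 6.75 and 6.77 in KO and 7.11, 6.96, 7.13, 7.40 and 7.20 in WT. KO replicates 3 and 4 were the lowest of the 9 arrays. Il18bp, which encodes the secreted inhibitor of IL-18, had 6.71, 6.84, 6.84 and 6.84 in KO and 6.86, 6.70, 6.79, 6.84 and 7.06 in WT. Casp1, the gene of that caspase, had signals of 13.09 to 13.77 in KO and of 13.49 to 13.96 in WT. Il16, a leukocyte chemoattractant cut from a larger precursor, was 6.15 in all 4 KO arrays and in 4 WT arrays, and 6.20 in WT replicate 5. Il4, a cytokine of basophils, mast cells and T helper cells, had 6.26, 5.91, 5.83 and 5.88 in KO and 5.77, 5.88, 5.92, 5.99 and 5.69 in WT. Of the mast cell and basophil markers 9 of 9 measured genes had means above background, with a mean signal of the list of 8.72 to 9.11 in KO and 7.46 to 8.88 in WT; their part in the signal was not tested.

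**Figure D2:**
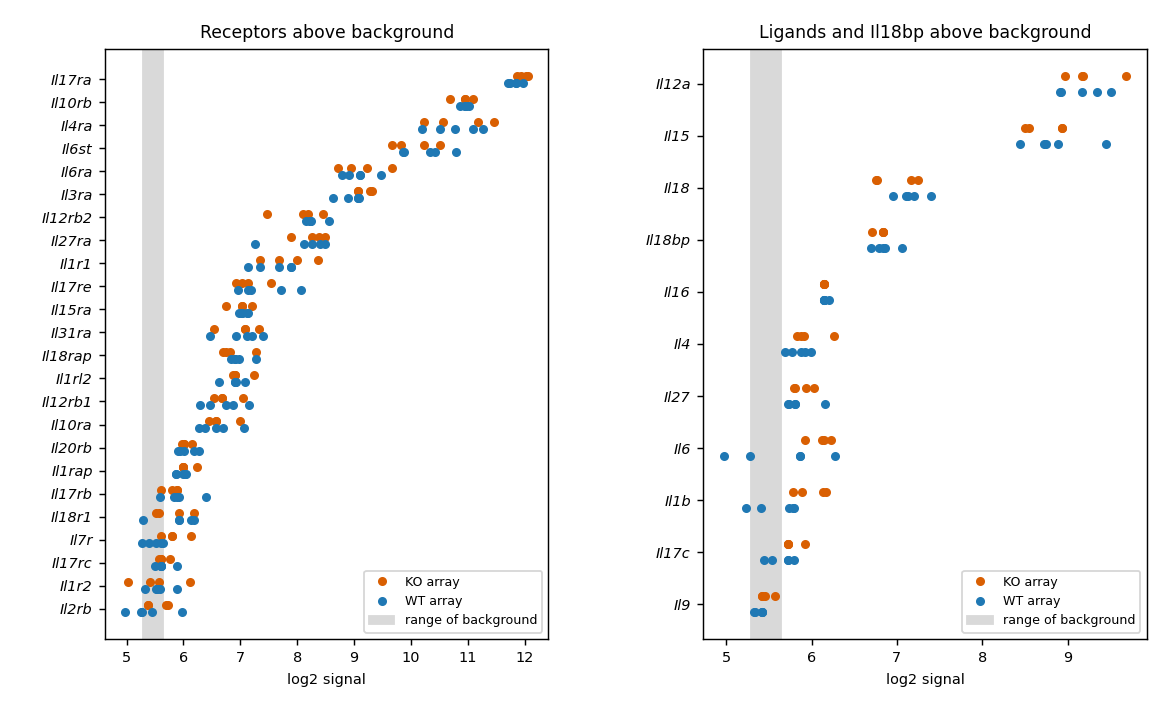
Log2 signal (horizontal axis) of every array for the 24 receptor chains (left) and the 10 ligands and Il18bp (right) above background; each point is 1 mouse, KO above WT in each row, and the grey band spans the background levels of the arrays. The lower rows of both panels reach into the band, and no row separates the groups.

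Just above the background level lay Il9 at a mean of 5.42, Il2rb, the IL-2 and IL-15 receptor chain, at 5.46, and Il1r2, the decoy receptor of IL-1, at 5.55. Just below it lay Il23a, the p19 subunit of IL-23, at 5.32, the IL-21 receptor gene Il21r at 5.27 and Il7 at 5.24. Of the 42 genes below background, 37 were below the level of every array, and the exceptions were Il23a in 3 arrays and Il7, Il10, Il13ra1 and Il5 in 1 array each. The genes of IL-2, IL-3, IL-5, IL-13, IL-17A, IL-22 and IL-33 were among those below background. A mean below background does not show that the transcripts were absent.

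Members separated by at most 3 other protein-coding genes in the RefSeq annotation of GRCm38.p6 formed 13 groups with 36 genes. Of these groups 3 lay above background throughout, 5 below it throughout and 5 were mixed, and how often that would occur among unrelated genes was not tested. The group on chromosome 1 that holds Il1r2, Il1r1, Il1rl2, Il18r1 and Il18rap was above background in 5 of 5 genes, and so were both genes of the pairs Il6st and Il31ra on chromosome 13 and Il17re and Il17rc on chromosome 6. In 5 groups no gene was above background: Il17a and Il17f, the group Il24, Il20, Il19 and Il10, the pair Il22ra2 and Il20ra, the pair Il2 and Il21, and a group of 6 IL-1 family genes on chromosome 2 that includes Il1rn, the gene of the IL-1 receptor antagonist. In the mixed groups 1 gene each was above background: Il12rb2 beside Il23r, Il4ra beside Il21r, Il15ra beside Il2ra, Il1b beside Il1a, and Il4 beside Il13 and Il5.

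The comparison of KO with WT asked which of these genes differ in LSK cells without Abi1. None of the 77 passed an adjusted p of 0.05 in limma, against 0.00332% of all genes, which is Abi1 alone. The smallest adjusted p among them was 0.786. Without adjustment 4 genes had a limma p under 0.05 and higher means in KO, Il1b, Il7r, Il17ra and Il23a, where 3.82% of all genes were so placed, and 1 with a lower mean, Il13ra1, where the share of all genes was 1.19%. Of the 77 genes 49 had higher means in KO, 27 lower ones and 1 an equal one, while 34 were higher and 43 lower with each array centred on its median, and 39 higher and 38 lower with quantile normalization. The median difference of the 77 genes was 0.034, the same as the 0.034 of all genes. That of the receptor chains was 0.028 and that of the ligands 0.048. With median centring these were -0.019 for the receptor chains and 0.0013 for the ligands, and without KO replicate 1 the ligand median was 0.016. Above background the medians were 0.013 for 24 receptor chains and 0.081 for 10 ligands, beside 0.018 for all genes there.

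**Figure D3:**
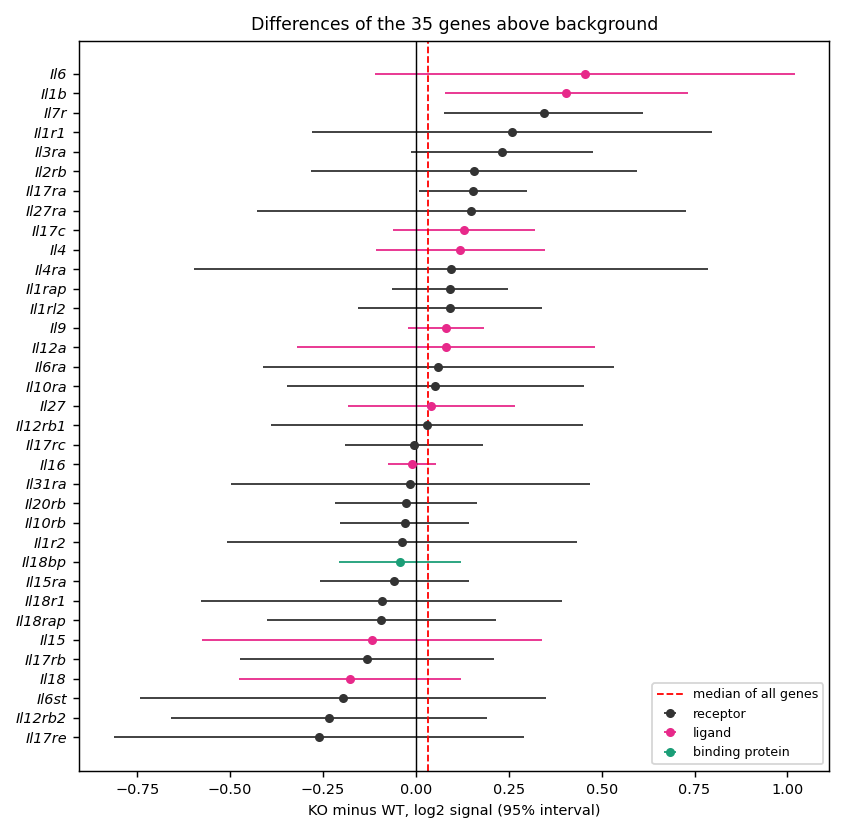
KO minus WT difference of log2 signals (horizontal axis) for the 35 genes above background, with limma intervals at the 95% level; the dashed line is the median difference of all genes. Il6, Il1b and Il7r have the largest positive values, and the intervals of Il1b, Il7r and Il17ra alone leave out 0.

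Il1b, the gene of the inflammatory cytokine IL-1 beta, had log2 signals of 6.17, 6.14, 5.89 and 5.78 in KO and of 5.79, 5.74, 5.78, 5.41 and 5.23 in WT. KO replicates 1 and 2 were the highest arrays, and KO replicate 4 lay among the WT arrays. The signals were near background, with a mean over the 9 arrays of 5.77, below the percentile 99 level of 6.16. WT replicate 5 was below its background level of 5.29, and KO replicate 1 had the highest such level, 5.64. Il1b averaged 5.995 ± 0.19 in the 4 KO arrays and 5.59 ± 0.26 in the 5 WT arrays (SD). The difference of 0.41 (SE 0.14) had a limma unadjusted p of 0.0212 and an adjusted p of 0.786, and the exact two-sided permutation test gave 0.0476. It was 0.26 without KO replicate 1 and WT replicate 5 together, and 0.26 with array weights. The limma unadjusted p was 0.0675 without KO replicate 1 and 0.0598 without KO replicate 2. Neutrophil markers were high in the same arrays: over 10 measured genes their mean signal reached 7.92 in KO replicate 1 and 7.76 in KO replicate 2, while it was 5.74 and 6.07 for the other KO mice and lay between 5.34 and 6.498 for the WT mice. Of those markers 6 had means above background, while Ly6g, Mmp8, Mmp9 and Retnlg did not. Ly6g exceeded the background level of its array only in KO replicates 1 and 2, at 6.11 and 5.86. Retnlg and Mmp8 did so only in KO replicate 2, at 6.11 and 5.39, and Mmp9 in no array. Monocyte and macrophage markers, 6 of 7 above background, had a mean signal of 7.93 to 8.60 in KO and of 7.76 to 8.40 in WT. The part of neutrophils, monocytes and macrophages in the Il1b result was not tested. In bulk RNA of sorted cells, more cells of a type and more RNA per cell cannot be told apart. IL-1 alpha, the other ligand of the receptor, was not above background, as Il1a averaged 4.73.

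Il6, a cytokine of emergency myelopoiesis, had 6.23, 5.92, 6.12 and 6.15 in KO and 5.87, 5.86, 6.27, 5.28 and 4.97 in WT. The KO arrays lay close together, while WT replicates 4 and 5 were below their background levels and WT replicate 3 was the highest of all. The difference of 0.46 (SE 0.25) had a limma unadjusted p of 0.102 and an adjusted p of 0.786. Without WT replicate 5 it was 0.29, and without WT replicate 3 it was 0.61 with a limma unadjusted p of 0.0225.

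Il7r, the IL-7-binding chain that marks lymphoid progenitors, had 6.13, 5.79, 5.60 and 5.80 in KO and 5.27, 5.39, 5.61, 5.64 and 5.52 in WT. KO replicate 1, the array with the highest background level, was the highest, and KO replicate 3 lay just below WT replicates 3 and 4. WT replicate 1 was below its background level of 5.33. Il7r averaged 5.83 ± 0.22 in the 4 KO arrays and 5.49 ± 0.16 in the 5 WT arrays (SD). The difference of 0.34 (SE 0.12) had a limma unadjusted p of 0.0176, an adjusted p of 0.786 and an exact two-sided permutation p of 0.0397. Without KO replicate 1 and WT replicate 5 together it was 0.25 (limma unadjusted p = 0.0628). Markers of B cells had a mean signal of 6.04 to 6.18 over 7 genes in KO and of 5.66 to 5.996 in WT, with 5 of the 7 above background and Pax5 and Vpreb3 below. Of the T cell markers 2 of 6 lay above background, and Cd3e, Cd3d, Cd4 and Cd8a did not. Of the markers of type 2 innate lymphoid cells, which carry Sca-1, 2 of 5 did. The part of B cells, T cells and innate lymphoid cells in the Il7r signal was not tested.

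The DNA upstream of Il1b, Il6 and Il7r is shown because these had the largest positive differences among the genes above background. Each line gives the 250 bases before the annotated start in RefSeq's GRCm38.p6, read 5′ to 3′ on the strand of the gene. The windows are chr2:129371140-129371389 on the minus strand for Il1b, chr5:30012864-30013113 on the plus strand for Il6 and chr15:9529877-9530126 on the minus strand for Il7r. Capitals mark matches, on either strand, to the NF-kappaB consensus, the AP-1 motif TGANTCA, the STAT motif TTCNNNGAA or the TATA box TATAAA, and no matches overlap.
Il1b: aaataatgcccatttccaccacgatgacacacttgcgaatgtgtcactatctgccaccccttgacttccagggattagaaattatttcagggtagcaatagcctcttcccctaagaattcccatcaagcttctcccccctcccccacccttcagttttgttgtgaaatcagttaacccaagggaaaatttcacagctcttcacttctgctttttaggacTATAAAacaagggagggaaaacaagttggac
Il6: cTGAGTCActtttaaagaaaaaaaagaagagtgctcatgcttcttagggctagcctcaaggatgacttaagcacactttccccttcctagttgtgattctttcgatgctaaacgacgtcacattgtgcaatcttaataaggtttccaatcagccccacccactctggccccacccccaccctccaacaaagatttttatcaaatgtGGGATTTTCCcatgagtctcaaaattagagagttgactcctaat
Il7r: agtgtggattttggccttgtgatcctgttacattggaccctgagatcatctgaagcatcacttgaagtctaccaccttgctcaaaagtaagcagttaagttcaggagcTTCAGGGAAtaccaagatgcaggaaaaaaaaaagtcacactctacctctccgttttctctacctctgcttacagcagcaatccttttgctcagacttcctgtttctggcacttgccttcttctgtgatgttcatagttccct

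The Il1b window held 1 match, the TATA box that begins 31 bases before the start. The Il6 window held an NF-kappaB match at 44 bases and an AP-1 match at 249 bases before the start, and the Il7r window a STAT match at 142 bases. Of all 32851 promoter windows of this length, 7.25% held the NF-kappaB consensus, 6.75% the AP-1 motif, 7.02% the STAT motif and 12.4% the TATA box. Windows were at hand for 60 of the 77 genes, 73 windows in all, and of these 6 held the NF-kappaB consensus, 14 the AP-1 motif, 8 the STAT motif and 13 the TATA box. A match is a description of the letters and not evidence of binding.

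Il17ra averaged 11.97 ± 0.085 in the 4 KO arrays and 11.82 ± 0.10 in the 5 WT arrays (SD). The difference of 0.15 (SE 0.064) had a limma unadjusted p of 0.0403 and an adjusted p of 0.786, and the exact two-sided permutation test gave 0.0556. With each array centred on its median it was 0.11, and its limma unadjusted p was under 0.05 in 3 of 17 alternatives. Among these, the mean of probesets used the same signals again, as Il17ra has 1 probeset.

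Il23a was the 1 gene of the 77 whose groups did not overlap, where 0.856% of all genes were so placed. Its log2 signals were 5.89, 5.50, 5.25 and 5.47 in KO and 5.23, 5.18, 5.23, 5.01 and 5.15 in WT. KO replicates 1, 2 and 4 exceeded the background levels of their arrays, and KO replicate 3 and all 5 WT arrays did not. The difference of 0.37 (SE 0.12) had a limma unadjusted p of 0.0134, an adjusted p of 0.786 and an exact two-sided permutation p of 0.00794, the smallest that 4 arrays against 5 allow. As every WT array was below background, the KO mean of 5.53 was also set against the WT background mean of 5.33, a 1.15-fold ratio. This ratio is not a lower limit of the change, because the spread of the arrays is left out. The limma interval of the difference ran from 0.098 to 0.64 in log2 signal. KO replicate 1 had a higher background level of its own, at 5.64. Without KO replicate 1 the KO mean was 5.41 and the ratio 1.06-fold. Without KO replicate 1 and WT replicate 5 together the difference was 0.24.

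Il13ra1, with a mean below background in both groups, had 5.14, 5.06, 5.02 and 5.08 in KO and 5.14, 5.14, 5.14, 5.30 and 5.38 in WT. The difference of -0.15 (SE 0.062) had a limma unadjusted p of 0.0456 and an adjusted p of 0.786, and WT replicate 5 alone exceeded the background of its array.

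**Figure D4:**
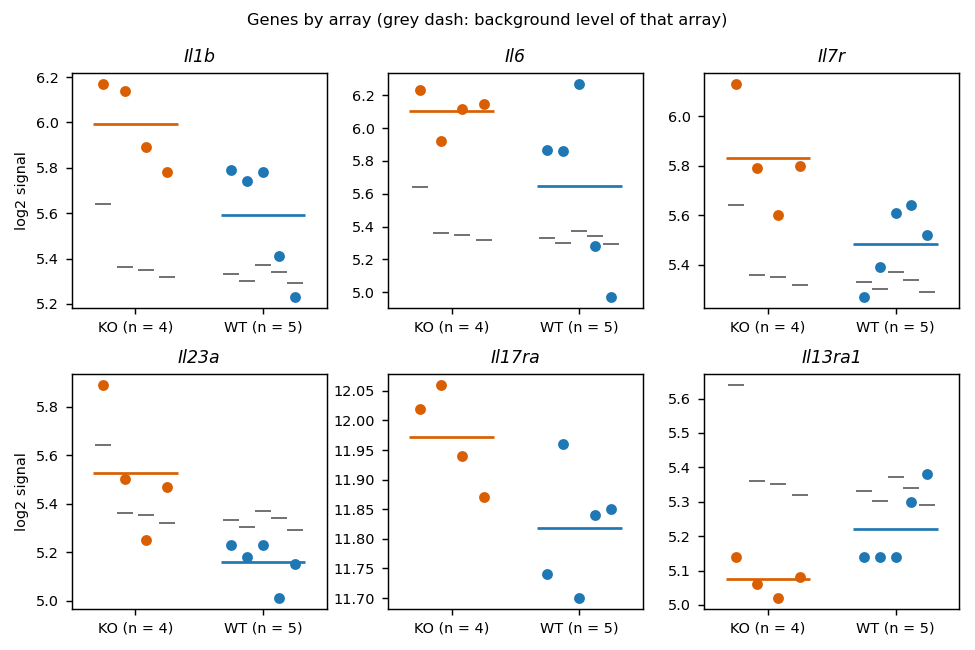
Log2 signal (vertical axis, scaled per gene) of 6 interleukin genes in each KO array (left, n = 4) and WT array (right, n = 5), with group means as lines and the background level of each array as grey dashes; the Il17ra signals lie far above those levels, which are left out there. Il23a separates the groups, with every WT array below its background level, and in the other 5 genes the groups touch or overlap.

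For the other genes above background the intervals show what the arrays could still hide. The difference of Il12a was 0.081, with a limma interval at the 95% level from -0.32 to 0.48, and that of Il15 was -0.12, from -0.57 to 0.34. Il4ra had 0.094, from -0.60 to 0.79, and Il6st -0.20, from -0.74 to 0.35. Il6ra had 0.060, from -0.41 to 0.53, and Il1r1 0.26, from -0.28 to 0.80. Il3ra came close to 0 at one end, with 0.23 and an interval from -0.014 to 0.48. Il12rb2 had -0.23, from -0.66 to 0.19, and Il17re -0.26, from -0.81 to 0.29. Narrower intervals belonged to Il10rb, at -0.03 and from -0.20 to 0.14, and to Il18bp, at -0.043 and from -0.21 to 0.12.

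Spread within the groups was larger for the receptor chains above background than for genes at large. Their median standard deviation within groups was 0.29, beside 0.20 for all genes above background and 0.18 for the ligands there. Several chains stood apart in single arrays. Il4ra and Il6ra were both high in KO replicate 2 and WT replicate 4, at 11.18 and 11.26 for Il4ra and at 9.67 and 9.48 for Il6ra. WT replicate 5 was the lowest array for Il27ra, at 7.26, and for Il31ra, at 6.47, and the highest for Il15 and for Il17rb, at 6.39. KO replicate 1 was the highest array for Il4ra and Il1r1 and the lowest for Il6st and Il12rb2.

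**Figure D5:**
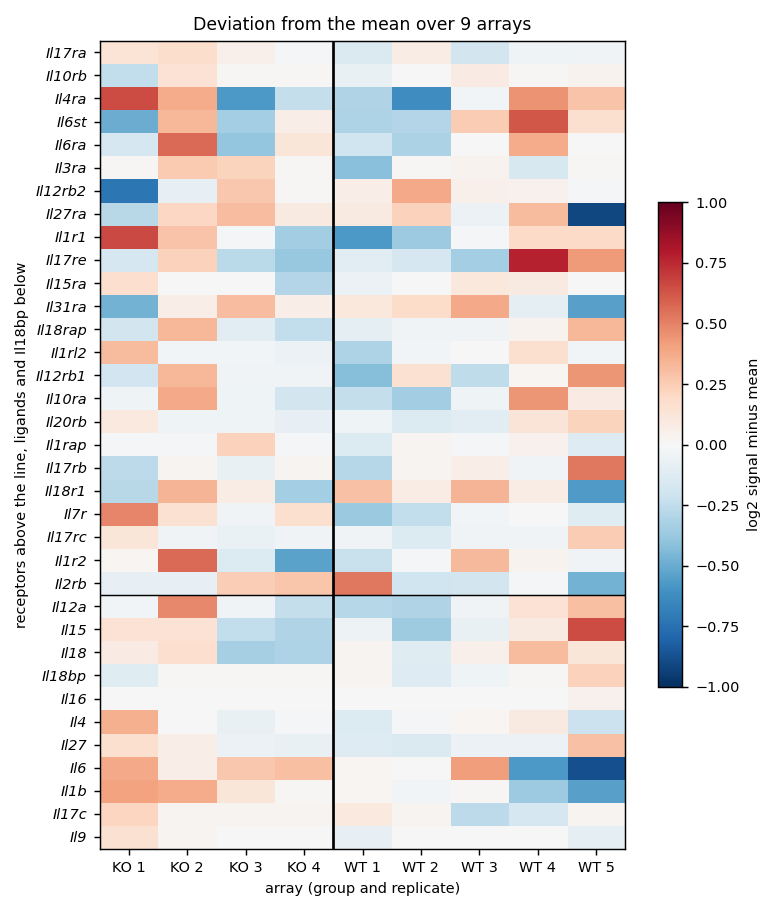
Deviation of each array's log2 signal from the gene's mean over 9 arrays (colour, limited to -1 and 1) for the 24 receptor chains (above the horizontal line) and the 10 ligands and Il18bp (below it), KO arrays left of the vertical line and WT arrays right. The strongest colours sit in single arrays, such as Il12rb2 in KO 1 and Il27ra in WT 5.

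Among the 42 genes below background, KO replicate 1 was the highest of the 9 arrays in 25, and it was so in 52.3% of all genes below background. Il5 was 5.85 in that array and 4.96 to 5.07 in the other KO arrays, against 4.92 to 4.99 in WT, and Il2ra, the inducible IL-2-binding chain, was 5.10 there and 4.41 to 4.43 in the other KO arrays, against 4.29 to 4.46 in WT. Equal values also shaped these genes: 26 of the 77 had the same signal to 2 decimals in 5 or more arrays, as did 7779 of all genes, and 22 of the 26 lay below background.

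Genes that act with the interleukin receptors but have other names were described from a list of 34 shared chains, kinases, STATs, adaptors and feedback genes, of which 28 were measured and 22 lay above background. None passed an adjusted p of 0.05 in limma, and the smallest was 0.786. An unadjusted limma p under 0.05 was found for 3 with higher means in KO, where 3.82% of all genes were so placed. It was found for 0 with lower means, where the share of all genes was 1.19%. The median difference of the 28 genes was -0.015. Myd88, the adaptor of the IL-1 and IL-18 receptors, had 9.37, 9.37, 9.00 and 8.96 in KO and 8.79, 8.85, 8.92, 8.78 and 8.51 in WT. The groups did not overlap, which held for 0.856% of all genes. The difference of Myd88 was 0.41 (SE 0.12, limma unadjusted p = 0.00858, adjusted p = 0.786). The arrays with the highest Myd88 signals, KO replicates 1 and 2, were those with the highest neutrophil marker signals, 7.92 and 7.76. In KO replicates 3 and 4, also above every WT array for Myd88, the neutrophil marker signals were 5.74 and 6.07, beside 6.498 in WT replicate 3. The part of those cells was not tested.

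Nlrp3, the sensor of the inflammasome that activates caspase-1, had 6.33, 6.67, 6.01 and 6.27 in KO and 5.98, 5.61, 6.01, 6.01 and 5.52 in WT, and KO replicate 3 equalled the highest WT arrays. Its difference was 0.49 (SE 0.16, limma unadjusted p = 0.0133, adjusted p = 0.786). Its highest signals were also those of KO replicates 1 and 2, beside the same neutrophil marker signals. KO replicate 4 was above every WT array for Nlrp3, with a neutrophil marker signal of 6.07, beside 6.498 in WT replicate 3. The part of those cells was not tested here either. Cish, a feedback inhibitor that STAT5 induces, had 7.20, 7.66, 7.46 and 7.55 in KO and 7.24, 6.64, 7.09, 7.11 and 6.40 in WT, with KO replicate 1 below WT replicate 1. Its difference was 0.57 (SE 0.19, limma unadjusted p = 0.0143, adjusted p = 0.786). No kinase or STAT gene passed the test, and KO replicate 1 was the lowest array for Jak1, Jak2, Tyk2, Stat4, Stat5a, Stat5b and Stat6. Jak1 had 12.53 in KO replicate 1 and 13.10 to 13.14 in the other KO arrays, against 13.14 to 13.32 in WT, and Stat4, the transducer of IL-12, had 10.73 to 11.29 in KO and 11.03 to 12.05 in WT. The feedback genes Socs1 and Socs3 lay below background, with means of 5.13 and 4.79.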

How the data were processed

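The deposited table holds 72688 probesets by 9 arrays, 1 array per mouse, from 5 ng of total RNA each, per the labels' protocols. Its values were taken as log2 signals made by the authors; Partek 6.6 is named in the submitters' processing notes, while no source at hand states the log base, the background correction or the normalization. The range of the values fits log2. The labels call the replicates biological, each from a mouse, and name no batch.

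Of 65956 target probesets, 30604 carried 1 symbol, 2146 several, and 33206 were not listed in the platform annotation; members were chosen by that symbol, and names were updated by Entrez identifier to RefSeq GRCm38.p6. The brightest probeset by the mean over 9 arrays stood for each of 30142 genes. The test was limma's moderated linear model (version 3.58.1, R 4.3.3, lmFit with eBayes, Benjamini-Hochberg over all genes, threshold 0.05). A trial of it on simulated data drew independent noise, without the array effects or equal values seen here. That trial does not show how the test performs on these arrays. Single genes were also tested by exact two-sided permutation over 126 splits. Lists are described by counts and medians. The number of arrays limits precision, with a median standard error of 0.12 for genes above background.

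Members, classes, lists and tests were chosen with earlier results of these data known. Named with all arrays are the 8 receptors and 8 other members with the brightest means above background, members above background at an unadjusted p under 0.05 and those without overlap. Members below background at that p are named too, as are the 3 nearest to background on either side. Partners above background at that p complete the rule. Other genes are examples chosen after their values were seen, and the list of receptor chain pairs was also made then. Alternatives were quantile normalization, median centring, leaving out dim genes, the mean of probesets, a variance trend, array weights, a replicate block, other background levels and leaving out arrays.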

Additional observations from a re-analysis of the deposited data

Results flagged for a closer look

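Single arrays stood far from the rest of their group in 4 of 55 groups tested, where chance flags about 1 in 20. Il12rb2 was 8.56 in WT replicate 2 and 8.16 to 8.25 in the other WT arrays. Il18bp was 6.71 in KO replicate 1 and 6.84 in each of the other KO arrays. Il16 was 6.20 in WT replicate 5 and 6.15 in each of the other WT arrays, and Il27 was 6.16 in WT replicate 5 and 5.72 to 5.81 in the others. For Il18bp and Il16 the gap is measured against arrays with identical values.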

How the results depend on the processing

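No interleukin gene and no partner gene passed the adjusted threshold under any of the 17 alternatives to the limma comparison. The count of interleukin genes at an unadjusted p under 0.05 was 5, and 2 with dim genes left out, 3 without KO replicate 1 and WT replicate 5 together (an alternative chosen after seeing the data) and 2 to 5 with single arrays left out, with the 2 found without KO replicate 2 and 3 without KO replicate 1 or 3 or WT replicate 4. That of the partner genes was 3, and 5 with quantile normalization, median centring or array weights, 1 with the replicate block and 3 to 5 with single arrays left out, the 5 without KO replicate 1 or WT replicate 3. The median difference of the receptor chains was 0.028, and -0.0026 with quantile normalization, -0.019 with median centring, and -0.0063 (without KO replicate 2) to 0.040 with single arrays left out. That of the ligands was 0.048, and 0.013 with quantile normalization, 0.0013 with median centring, 0.018 with array weights, 0.0125 with KO replicate 1 and WT replicate 5 both left out, and 0.016 if KO replicate 1 alone was. The 35 genes above background became 20 at percentile 99; 32 were above in every array of 1 group or both. Of the 25 interleukin genes named by rule, 12 kept the sign of their difference under every alternative that tested them, among them Il1b, Il6, Il7r, Il17ra, Il23a and Il13ra1. Some alternatives could not change a sign. Each member has 1 probeset, so the mean of probesets left its difference as it was. The variance trend and leaving out dim genes alter only the variance, and the replicate block gave the same differences as leaving out WT replicate 5. Il23a kept an unadjusted p under 0.05 in 16 of 16, Il7r in 15 of 17, Il1b in 13 of 17, Il13ra1 in 10 of 16 and Il17ra in 3 of 17. These genes had such a p in the main comparison, and the mean of probesets nearly repeats that fit for them. The other alternatives reuse the same arrays, so the tallies are not independent tests. Same-numbered KO and WT arrays had correlations of deviations of -0.18, 0.15, -0.014 and 0.27 across genes, so the replicate numbers were not taken as pairs. With the replicate block 4 interleukin genes had an unadjusted p under 0.05. The causes were not tested. With dim genes left out, Il23a and Il13ra1 were not in the fit, while Il17ra was and had a limma unadjusted p of 0.0653. Signals near background, where most ligands lie, limit what these arrays can show.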

Other observations

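Probesets with several symbols were outside the comparisons. Those shared by Il11ra2, the second mouse gene of the IL-11 receptor, with Gm13305, Gm2002 and LOC100861969 had mean log2 signals of 8.62 in KO and 8.56 in WT on the brightest of them, above background, and their signal cannot be assigned to 1 gene. The probeset of Il4i1, an amino acid oxidase gene, with Nup62 had means of 5.75 and 5.74, and that of Il1bos, antisense to Il1b, 4.96 and 4.86, in KO and WT each time, the last of them below background.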
